A study of Mus musculus with 35 samples.

Results

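Fragments cut from the 5′ end of tRNAs were followed in male germ cells that lack SMG6, the endonuclease of nonsense-mediated mRNA decay. The tRNA table of the small RNA sequencing held 284 rows, one for each tRNA anticodon and fragment end, and the 71 rows whose reads were assigned to the 5′ end of a mature tRNA were taken as the 5′ fragments. Of these, 49 came from nuclear and 22 from mitochondrial tRNAs. A row was tested when it had at least 10 counts in at least 3 of the 16 libraries, which left 185 rows of the table and 46 of the 71 5′ rows, 40 nuclear and 6 mitochondrial. The 25 untested 5′ rows together held 0.264% of all 5′ counts, and none of them passed 19 counts in any library.

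The mutant was Smg6-cKO, Smg6(fx/fx);Ngn3Cre+, in which Cre under the Ngn3 promoter deletes a loxP-flanked exon of Smg6 in early postnatal germ cells. The controls (CTRL) were littermates without the Cre transgene and were either Smg6(fx/fx);Ngn3Cre-, with floxed Smg6 on both chromosomes, or heterozygous for the floxed allele, Smg6(fx/wt);Ngn3Cre-. All mice were adults of a mixed C57Bl/6J and SV129 background. Pachytene spermatocytes (5 Smg6-cKO and 5 CTRL libraries) and round spermatids (3 and 3) were enriched by velocity sedimentation through a BSA gradient, so other testicular cells can remain in a fraction, and spermatids of the mutant do not develop beyond the round stage. Libraries are named here by the sequencing tags in the deposited column names, S15 to S17 for Smg6-cKO and S18 to S20 for CTRL round spermatids, S21 to S25 for Smg6-cKO and S26 to S30 for CTRL spermatocytes. The labels do not say that the libraries of a group came from different mice, so a p-value measures the spread between these libraries, which may in part be technical. The long RNA of these fractions has 3 libraries a group, and the small RNA is described as made from the same samples in 3 biological replicates. The 5 spermatocyte libraries of a genotype are thus more than those replicates, some may share a mouse, and the p-values that rest on them may be too small.

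A tRNA can be cut in its anticodon loop by ribonucleases such as angiogenin (Ang), which leaves a 5′ and a 3′ fragment, while shorter 5′ fragments arise by cuts in the D arm. Angiogenin is held in check by the ribonuclease inhibitor RNH1, and cytosine methylation of tRNA by TRDMT1 (DNMT2) and NSUN2 protects tRNAs from cleavage. In the male germ line, 5′ fragments of tRNA-Glu and tRNA-Gly are best known from mature sperm, which take up much of their load during transit through the epididymis, whereas piRNAs prevail among the small RNAs of spermatocytes and round spermatids.

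The 5′ ends of some tRNAs the results turn on are shown as the first 30 bases of a representative gene in the RefSeq annotation of GRCm38.p6, the build the submitters name. A gene was matched for 40 of the 46 tested rows; Met-CAT, iMet-CAT, SeC-TCA, mt-Ser-TGA, mt-Gln-TTG and mt-Tyr-GTA were the others. Fragment lengths were not analysed here, so a row can hold fragments shorter or longer than the stretch shown. The first set holds Glu-TTC and Asp-GTC, which had high counts in CTRL round spermatids, with capitals at the positions where they differ. They come from chr7:58399315-58399386 (plus strand, Glu-TTC) and chr1:171037029-171037100 (minus strand, Asp-GTC), neither inside another annotated gene.
Glu-TTC: tccCACAtGgtCtagCggtTagGatTccTg
Asp-GTC: tccTCGTtAgtAtagTggtGagTatCccCg

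The second set shows rows with closely similar 5′ ends. The Val-CAC and Val-AAC rows, at chr1:171111443-171111515 (plus strand) and chr13:23401073-23401145 (minus strand), start with the same 19 bases and differ at 2 of the first 30, and Gly-ACC at chr11:48823728-48823801 (plus strand) shares its first 21 bases with Val-CAC. Over all gene copies, Val-CAC and Val-AAC had 2 of their first 30-base sequences in common and Gly-ACC none with Val-CAC, and the Gly-ACC row had 2146 counts over all libraries. Capitals mark the positions where the 3 are not all alike.
Val-CAC: gtttccgtagtgtagtggtTaTcAcgTtcg
Val-AAC: gtttccgtagtgtagtggtCaTcAcgCtcg
Gly-ACC: gtttccgtagtgtagtggtTaGcGcgTtcg

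The Leu-AAG and Leu-TAG rows, at chr11:48856974-48857055 (minus strand) and chr11:69124241-69124322 (plus strand), have the same first 30 bases, and Leu-CAG at chr1:171038614-171038696 (plus strand) departs from both near its start, where the capitals stand.
Leu-AAG: gGTagCGtggccgagcggtctaaggcgctg
Leu-TAG: gGTagCGtggccgagcggtctaaggcgctg
Leu-CAG: gTCagGAtggccgagcggtctaaggcgctg

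How reads that fit several tRNAs were counted is not given in the sources used here. The Val-CAC and Val-AAC rows summed to 26397 and 24995 counts over all libraries and differed, added up over the libraries, by 5.31% of the total of the larger row, the Leu-TAG and Leu-AAG rows by 3.72% and the Ser-TGA and Ser-AGA rows by 4.92%, and the 3 Pro rows by at most 6.12%. Each of these sets is therefore close to 1 measurement entered more than once, and the 46 tested rows hold about 41 distinct ones. All these rows stay in the 5′ totals and shares below, where reads counted in several rows would weigh more than once.

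The tRNA tables held 37315 to 105677 counts per library, of which 9796 to 34354 were 5′ fragments, beside 120483 to 306864 miRNA counts and 4823440 to 12372524 counts in piRNA clusters. At this depth the 95% exact binomial interval of the share of 5′ fragments was 0.537 to 0.922 percentage points wide in a library, for counting error only. The long RNA libraries of the same fractions, 3 for each genotype and cell type, do not check the deletion through the summed count of Smg6, which covers the whole gene (log2 fold change 0.05, SE 0.16, in round spermatids and 0.22, SE 0.17, in spermatocytes), and the deleted exon was not analysed here. Spermatid marker transcripts (Acrv1, Spaca1, Tnp1, Prm1 and Prm2, all 5 detected) summed to 9878 to 13040 CPM, counts scaled to the library total, in CTRL round spermatids and to 652 to 830 in Smg6-cKO, while macrophage markers (3 of 3) went from 10.2 to 12.2 in CTRL to 75.5 to 118 CPM and Leydig cell markers (3 of 3) from 4.41 to 4.65 to 23.4 to 252. In the small RNA libraries themselves, germ cell miRNAs (11 of 11 found) had 436000 to 464800 CPM of the miRNA counts in CTRL and 255000 to 331500 in Smg6-cKO round spermatids, and myeloid and lymphoid miRNAs (3 of 3) 5096 to 5328 and 7550 to 21840. Spermatocyte markers (4 of 4) had 149 to 179 CPM in CTRL and 299 to 323 in Smg6-cKO round spermatids, Sertoli cell markers (4 of 4) 4.59 to 6.04 and 9.21 to 27.1, and the smooth muscle (2 of 2), endothelial (1 of 1) and gonadal somatic (1 of 1) miRNAs were also higher in every Smg6-cKO than in every CTRL library of round spermatids. The erythroid miRNAs (3 of 3) went both ways, with 2646, 25.9 and 1477 CPM in the Smg6-cKO libraries S15, S16 and S17 and 84.7 to 156 in CTRL round spermatids. No marker list was at 0 in any group. The part of these shifts in cell make-up in the results below was not tested, and in bulk fractions fewer cells of a type cannot be told apart from less RNA per cell. The libraries within a group differed by more than counting noise (chi-square per degree of freedom at least 2.23 in the tRNA table), so none was counted as a copy of another, and S16 among the Smg6-cKO round spermatids and S22 among the Smg6-cKO spermatocytes stood farthest from the others in several of the values below.

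The share of 5′ fragments among all tRNA counts was highest in CTRL round spermatids, with 38.6%, 40.1% and 47.2% in the 3 libraries (mean 41.9% ± 4.60, SD, n = 3). Smg6-cKO round spermatids had 30.04%, 28.1% and 27.0% (28.4% ± 1.52, n = 3), and the groups did not overlap. In spermatocytes the shares were 27.7 to 31.9% in CTRL (29.8% ± 1.62, n = 5) and 21.2 to 30.6% in Smg6-cKO (25.2% ± 3.57, n = 5), which overlapped. Between the cell types, the CTRL libraries did not overlap and the Smg6-cKO libraries did.

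Against the miRNAs of the same libraries the picture was different. CTRL spermatocytes held 65.9 to 78.2 5′ counts per 1000 miRNA counts (73.1 ± 4.498, n = 5) and Smg6-cKO spermatocytes 74.7 to 113 (93.1 ± 16.9, n = 5). CTRL round spermatids held 112 to 117 (115 ± 2.98, n = 3) and Smg6-cKO round spermatids 77.7 to 108 (95.6 ± 15.9, n = 3), with S16 at the low end. The other tRNA counts, without the 5′ fragments, went from 162 ± 32.6 per 1000 miRNA counts in CTRL to 242 ± 46.8 in Smg6-cKO round spermatids (n = 3 each). In round spermatids the lower share of 5′ fragments in the mutant thus came with fewer 5′ counts and more other tRNA counts per miRNA count, whereas in spermatocytes the lower mean share came with more of both (other tRNA counts 172 ± 7.45 in CTRL and 279 ± 55.2 in Smg6-cKO, n = 5 each). Against piRNA cluster counts, the order of the genotypes in round spermatids was the other way round, with 2.82 ± 0.0774 5′ counts per 1000 cluster counts in CTRL and 3.74 ± 1.23 in Smg6-cKO (2.36 to 4.70, which spans the CTRL libraries).

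**Figure D1:**
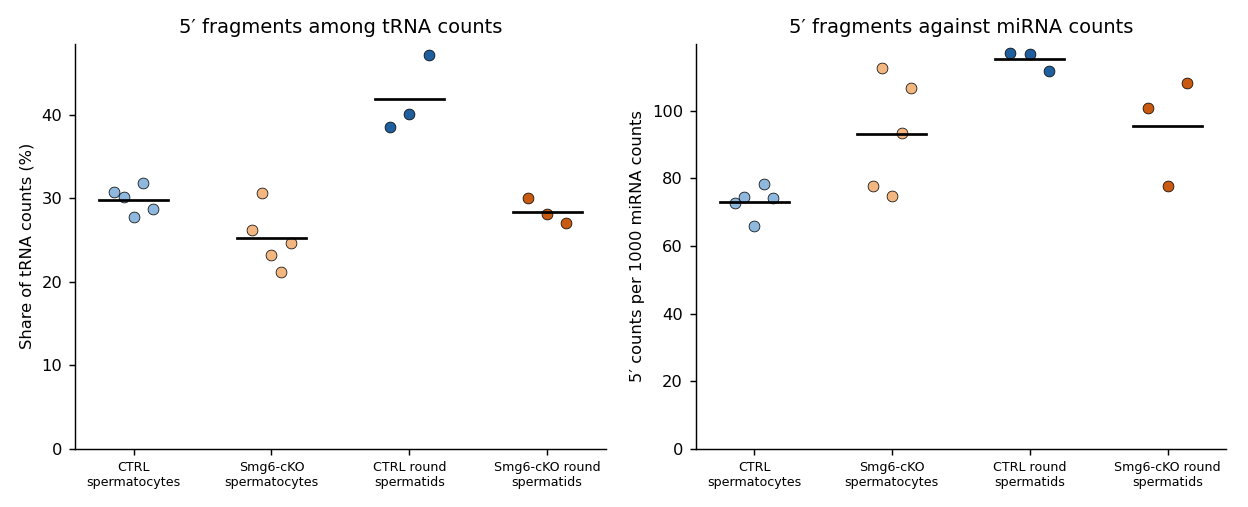
Left, share of 5′ fragments among all tRNA counts of a library (%); right, 5′ fragment counts per 1000 miRNA counts. Each point is 1 library, the bar is the group mean, and both axes start at 0. The 3 CTRL round spermatid libraries lie above all others on the left (38.6 to 47.2%), while on the right the Smg6-cKO spermatocytes spread from 74.7 to 113.

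Few tRNAs carried the 5′ fragments. Glu-CTC and Asp-GTC alone took 43.2% of all 5′ counts over the 16 libraries, the first 5 rows (with Glu-TTC, Val-CAC and Val-AAC) 69.5%, and the first 10 (with Gly-GCC, Lys-CTT, mt-Ser-GCT, Lys-TTT and Ala-AGC) 88.6%. Their proportions within a library do not depend on any scaling between libraries. Since the proportions of a library sum to a fixed total, they are given as a description. Val-CAC and Val-AAC both stay in that total, where any reads they share count more than once. Val-AAC took 5.6 to 6.2% of the 5′ counts in CTRL and 9.3 to 13.95% in Smg6-cKO round spermatids. With shared reads, the Glu and Asp proportions below would be too low, and more so in Smg6-cKO than in CTRL round spermatids. Glu and Asp together made up 73.7%, 72.3% and 74.04% of the 5′ counts of the 3 CTRL round spermatid libraries but 41.9%, 44.5% and 39.0% of those of Smg6-cKO round spermatids. In spermatocytes they made up 50.9 to 57.6% in CTRL and 33.0 to 51.3% in Smg6-cKO. Glu and Asp thus held the larger part in every CTRL library of both cell types, and most in CTRL round spermatids, and the mean in Smg6-cKO round spermatids was 41.8%, beside 40.6% in Smg6-cKO spermatocytes. The spermatocyte markers that were higher in Smg6-cKO round spermatids, as given above, moved with these proportions, and their part in them was not tested.

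Glu-CTC had the largest proportion in each of the 4 groups, with 39.5% ± 1.26 of the 5′ counts in CTRL and 20.8% ± 0.307 in Smg6-cKO round spermatids (n = 3 each), and 30.6% ± 4.81 and 19.5% ± 3.47 in spermatocytes (n = 5 each). Asp-GTC went from 24.3% ± 0.384 to 11.3% ± 3.17 between CTRL and Smg6-cKO round spermatids. Glu-TTC did not follow them, with 9.52% ± 0.336 in CTRL and 9.64% ± 4.92 in Smg6-cKO round spermatids, where S16 alone had 15.3%. Other abundant rows had larger proportions in the mutant. Val-CAC went from 6.25% ± 0.344 to 11.5% ± 2.27, Gly-GCC, the fragment best known from sperm, from 2.39% ± 0.0842 to 6.11% ± 1.36, and mt-Ser-GCT from 1.61% ± 0.159 to 5.61% ± 0.934, with no overlap between the genotypes in any of the 3. Mitochondrial rows together had 2.58 to 3.00% in CTRL and 6.19 to 7.85% in Smg6-cKO round spermatids.

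**Figure D2:**
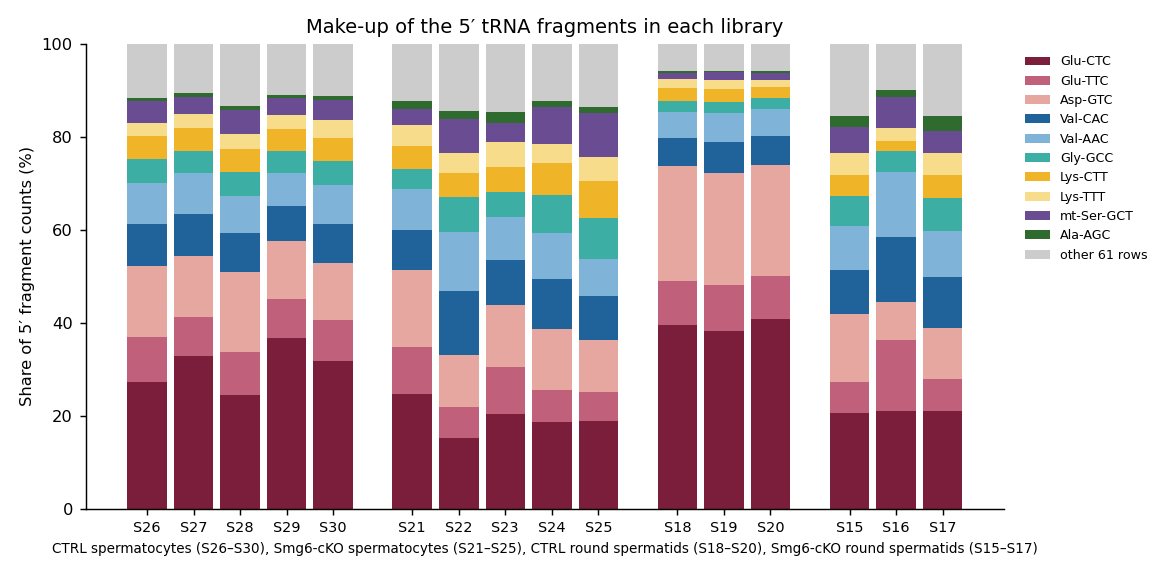
Share of the 5′ fragment counts of each library (%, bars sum to 100) taken by the 10 rows with the highest mean and by the other 61 rows together, for the 16 libraries in 4 groups. In the CTRL round spermatid bars (S18 to S20) Glu-CTC, Glu-TTC and Asp-GTC reach 72.3 to 74.04%, in the Smg6-cKO round spermatid bars (S15 to S17) 39.0 to 44.5%.

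The genotypes were compared row by row on counts scaled by the trimmed mean of M values (TMM) over the whole tRNA table, with edgeR's quasi-likelihood test and Benjamini-Hochberg adjustment over the 185 rows; a row was called at an adjusted p of at most 0.05, and normalised counts are counts at the mean effective library size. In round spermatids, 9 of the 46 5′ rows were higher in Smg6-cKO than in CTRL and 9 were lower, beside 10.3% and 14.6% of all 185 rows. The median log2 fold change was 0.45 over the 46 rows and -0.02 over all rows. The fallers were the abundant Glu and Asp fragments together with initiator Met, Thr-TGT, SeC-TCA, Gln-CTG, Lys-CTT and mt-Met, and the risers were mostly rare fragments, among them elongator Met, Trp-CCA, Ile-AAT, Phe-GAA, Ala-AGC, Val-TAC and the 3 tested Arg rows. In normalised counts, the 3 Smg6-cKO libraries lay wholly above the 3 CTRL libraries for 12 rows and wholly below for 10, beside 17.8% and 21.6% of all 185 rows. The 12 hold Arg-ACG and mt-Ile-GAT, which reached 10 counts in Smg6-cKO libraries only. The split of the calls leaned on single libraries, with 10 higher and 4 lower without S20, 12 and 6 without S16, 5 and 7 without S18 and 6 and 6 without S19.

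Among the fallers, the 5′ fragment of tRNA-Glu-CTC, which reads the glutamate codon GAG, had normalised counts of 13045, 13097 and 16939 in CTRL and of 3086, 3455 and 3333 in Smg6-cKO round spermatids. The genotypes were far apart and the mutant libraries were alike (log2 fold change -2.13, SE 0.26, adjusted p = 1.51e-06 by edgeR's quasi-likelihood test). Asp-GTC, the only aspartate anticodon in the table, had 8178, 8279 and 9998 in CTRL and 2196, 1362 and 1747 in Smg6-cKO, and fell by 2.32 on the log2 scale (SE 0.25). Glu-TTC had 3111, 3390 and 3843 in CTRL and 1024, 2530 and 1076 in Smg6-cKO. It fell by 1.16 (SE 0.30, adjusted p = 0.0062, edgeR), with the S16 library between the other mutant libraries and CTRL, and without the CTRL library S20 its fold change of -0.92 was no longer called.

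The initiator tRNA, which starts every cytosolic protein, and the elongator tRNA-Met, which reads internal methionine codons, share the anticodon CAT, and their 5′ fragments moved in opposite directions. For initiator Met-CAT, normalised counts were 141, 105 and 125 in CTRL and 42.6, 37.1 and 33.2 in Smg6-cKO round spermatids (log2 fold change -1.72, SE 0.22). For elongator Met-CAT they were 9.94, 7.67 and 29.0 in CTRL and 137, 116 and 169 in Smg6-cKO (3.06, SE 0.45). The CTRL values of Met-CAT rest on 5, 4 and 24 counts, and without S20 the Met sum was at 4.14 in this comparison, at -3.27 between the CTRL cell types and at 3.67 for the interaction. Neither fragment overlapped between the genotypes.

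**Figure D3:**
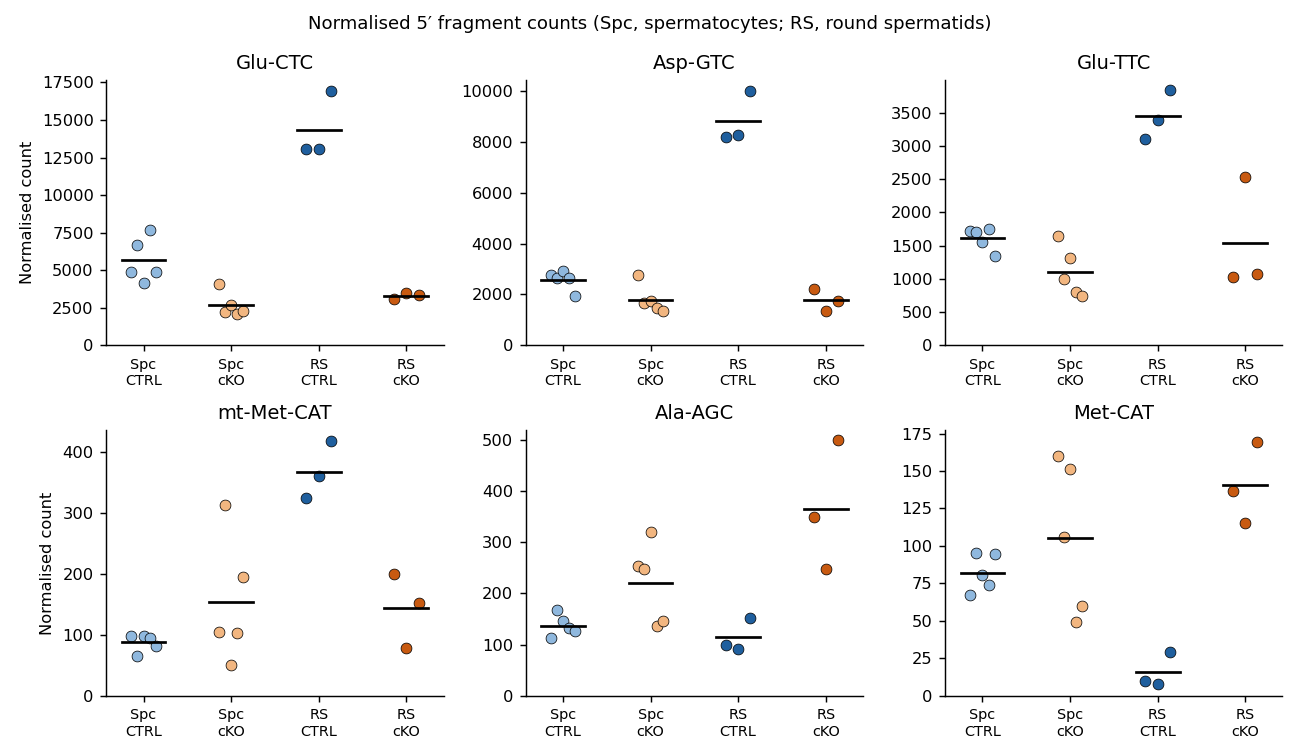
Normalised counts of 6 5′ fragment rows (y axes, each from 0 and with its own range) in the 4 groups; each point is 1 library and the bar is the group mean. For Glu-CTC and Asp-GTC the 3 CTRL round spermatid libraries lie above all 13 others, and for Met-CAT below them.

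Of the other fallers, Thr-TGT had 97.5, 84.3 and 78.7 in CTRL and 33.0, 12.4 and 29.3 in Smg6-cKO (-1.73, SE 0.30). The fragment of the selenocysteine tRNA, SeC-TCA, which decodes a stop codon as selenocysteine, had 31.8, 68.99 and 70.2 in CTRL and 31.6, 13.8 and 25.99 in Smg6-cKO (-1.22, SE 0.36). Here the highest mutant library came up to the lowest CTRL library. Lys-CTT had 869, 964 and 997 in CTRL and 695, 344 and 778 in Smg6-cKO (-0.64, SE 0.23), and its call was lost without S16, where the fold change was -0.19, and also without S18, S19, S20, S26, S28 or S29 (-0.69 to -0.44). Gln-CTG (-0.83, SE 0.28) overlapped between the genotypes, with 96.3 in S16 inside the CTRL range of 93.9 to 134.

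Among the risers, Ala-AGC was the most abundant, with 99.4, 92.0 and 152 normalised counts in CTRL and 349, 248 and 499 in Smg6-cKO round spermatids (log2 fold change 1.66, SE 0.31, adjusted p = 0.000375, edgeR). Ile-AAT had 7.96, 17.2 and 12.1 in CTRL and 50.8, 27.5 and 52.5 in Smg6-cKO (1.83, SE 0.35). Trp-CCA had 5.97, 5.75 and 4.84 in CTRL and 30.9, 28.9 and 41.5 in Smg6-cKO (2.63, SE 0.51). All 3 were apart between the genotypes, in Trp-CCA on 3 to 4 counts in each CTRL library and in Ile-AAT on 4 to 10. Phe-GAA, with 5.75 to 6.05 in CTRL and 18.5 to 24.8 in Smg6-cKO, was also apart, on 3 to 5 counts in each CTRL library. Val-TAC (29.8 to 78.7 and 71.5 to 161) was not apart.

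Arginine fragments were close to the floor in CTRL round spermatids. Arg-ACG had 2 counts in the 3 CTRL libraries and 45 in the 3 Smg6-cKO libraries, a ratio of 10.4 at equal effective library size with an exact 95% counting interval of 2.72 to 88.7. It reached 10 counts in Smg6-cKO libraries only, through which it passed the filter, so its calls are given as a description. Arg-TCG had 3 and 34 counts (ratio 5.25, interval 1.65 to 26.7). The third called row, Arg-TCT, had 7.67 to 14.5 normalised counts in CTRL and 21.6 to 28.9 in Smg6-cKO. As examples of the risers, the Ala-AGC, Trp-CCA and Arg-ACG rows start as follows, with the first base in capitals. The genes lie at chr3:19628995-19629067 (plus strand, Ala-AGC), chr13:23498106-23498177 (plus strand, Trp-CCA) and chr3:19627959-19628031 (minus strand, Arg-ACG).
Ala-AGC: Gggggattagctcaaatggtagagcgctcg
Trp-CCA: Gacctcgtggcgcaacggtagcgcgtctga
Arg-ACG: Gggccagtggcgcaatggataacgcgtctg

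The first bases were as follows, with no test. Of the 40 rows with a gene, 32 begin with G and 3 with T, Glu-TTC and Asp-GTC among the latter. All 8 higher rows with a gene begin with G. Of the 7 lower rows with a gene, 3 begin with T, 3 with G and 1, mt-Met-CAT, with A. The GC content of the first 30 bases had medians of 58.3% in the higher and 53.3% in the lower rows, beside 56.7% in all 40.

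Summed by isotype, which joins the rows with nearly the same counts, 6 of 26 5′ sums were higher and 6 lower in Smg6-cKO round spermatids, beside 13.6% and 15.5% of the 110 isotype sums of all fragment ends. If such rows share reads, as in Val, Leu, Ser and Pro, a sum holds those reads more than once. The higher sums were Met (3.06, SE 0.47), Trp (2.62, SE 0.53), Ile (1.87, SE 0.37), Phe (1.77, SE 0.57), Arg (1.57, SE 0.36) and Ala (1.23, SE 0.28) on the log2 scale. The lower sums were Asp (-2.32, SE 0.24), Glu (-1.88, SE 0.25), initiator Met (-1.72, SE 0.23), Thr (-1.61, SE 0.32), mt-Met (-1.34, SE 0.44) and SeC (-1.23, SE 0.38). The sums of the other abundant isotypes were not called, with -0.27 (SE 0.22) for Val, 0.29 (SE 0.19) for Gly and -0.33 (SE 0.19) for Lys. The Phe sum was not called without the CTRL library S18 or S19 (1.77 and 1.75), nor the mt-Met sum without S16, S19 or S20 (-0.89, -1.35 and -1.09).

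In spermatocytes fewer rows were called. None of the 46 5′ rows was called higher and 6 were called lower in Smg6-cKO, beside 0.541% and 7.57% of all 185 rows, and 15 had an unadjusted p under 0.05. Counting rows with nearly the same counts once, the 6 are 4 measurements. The median log2 fold change was -0.18 over the 46 rows and -0.06 over all rows. The 6 rows were also those in which all Smg6-cKO libraries lay below all CTRL libraries, and only Gly-TCC, not called, lay wholly above, beside 6.49% and 1.62% of all 185 rows.

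Cell type markers moved between the genotypes here as well. Spermatid markers had 1677 to 3448 CPM in CTRL and 141.6 to 455 in Smg6-cKO spermatocytes, and Sertoli cell markers 39.2 to 98.9 and 7.63 to 18.3. Macrophage markers had 5.23 to 8.67 and 18.2 to 22.7, and Leydig cell markers 83.05 to 299 and 407.5 to 831. Among the miRNAs, the gonadal somatic one, miR-202, had 12910 to 17600 CPM in CTRL and 2448 to 5713 in Smg6-cKO, and the smooth muscle ones 275 to 699.9 and 1726 to 4798. Myeloid and lymphoid miRNAs had 2634 to 3796 and 4038 to 17400, and erythroid miRNAs 8.72 to 75.4 and 18.5 to 3051, with S22 at the top of both mutant ranges and the other 4 mutant libraries at 18.5 to 55.6 for the erythroid ones. Other lists overlapped between the genotypes. Spermatocyte markers had 492 to 593 CPM in CTRL and 553.5 to 652.5 in Smg6-cKO, germ cell miRNAs 313200 to 356700 and 279000 to 445200, and the endothelial miRNA 192 to 813 and 581 to 1862. The part of the marker shifts in the 5′ rows of spermatocytes was not tested.

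Glu-CTC was again the leading faller. Its normalised counts were 4856, 6659, 4176, 7700 and 4912 in CTRL and 4084, 2242, 2668, 2090 and 2320 in Smg6-cKO spermatocytes (log2 fold change -1.08, SE 0.19, adjusted p = 0.000834, edgeR's quasi-likelihood test). The highest mutant library, S21, came close to the lowest CTRL library, S28. Leu-TAG had 130, 147, 203, 238 and 141 in CTRL and 67.5, 82.005, 52.4, 65.99 and 93.998 in Smg6-cKO (-1.23, SE 0.27). Leu-AAG, with the same first 30 bases, changed alike (-1.27, SE 0.28), while Leu-CAG, which differs near its start, was not called (-0.41, SE 0.20). The remaining called rows were Ser-AGA (-0.92, SE 0.20), Ser-TGA (-0.86, SE 0.19) and initiator Met (-0.76, SE 0.17). Initiator Met had 75.99 to 102 normalised counts in CTRL and 47.4 to 62.2 in Smg6-cKO.

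Some rows called in round spermatids were not called here. Asp-GTC had 1926 to 2935 normalised counts in CTRL and 1368 to 2745 in Smg6-cKO spermatocytes (log2 fold change -0.52, SE 0.18, adjusted p = 0.0821, edgeR). Ala-AGC (0.68, SE 0.24) and Glu-TTC (-0.56, SE 0.23) were not called either. Summed by isotype, none of the 26 5′ sums was higher and 4 were lower, beside 0.909% and 9.09% of the 110 sums. They were Glu (-0.95, SE 0.19), Ser (-0.91, SE 0.18), Leu (-0.79, SE 0.21) and initiator Met (-0.76, SE 0.17), and 10 sums had an unadjusted p under 0.05. The Leu sum was not called without S20 or S29 (-0.65 and -0.67). Leaving out S16, a round spermatid library that enters through the shared spread and scaling, gave 11 called rows (4 higher, 7 lower), and leaving out S21 gave 9, all lower; DESeq2 called 7 (1 higher, 6 lower).

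**Figure D4:**
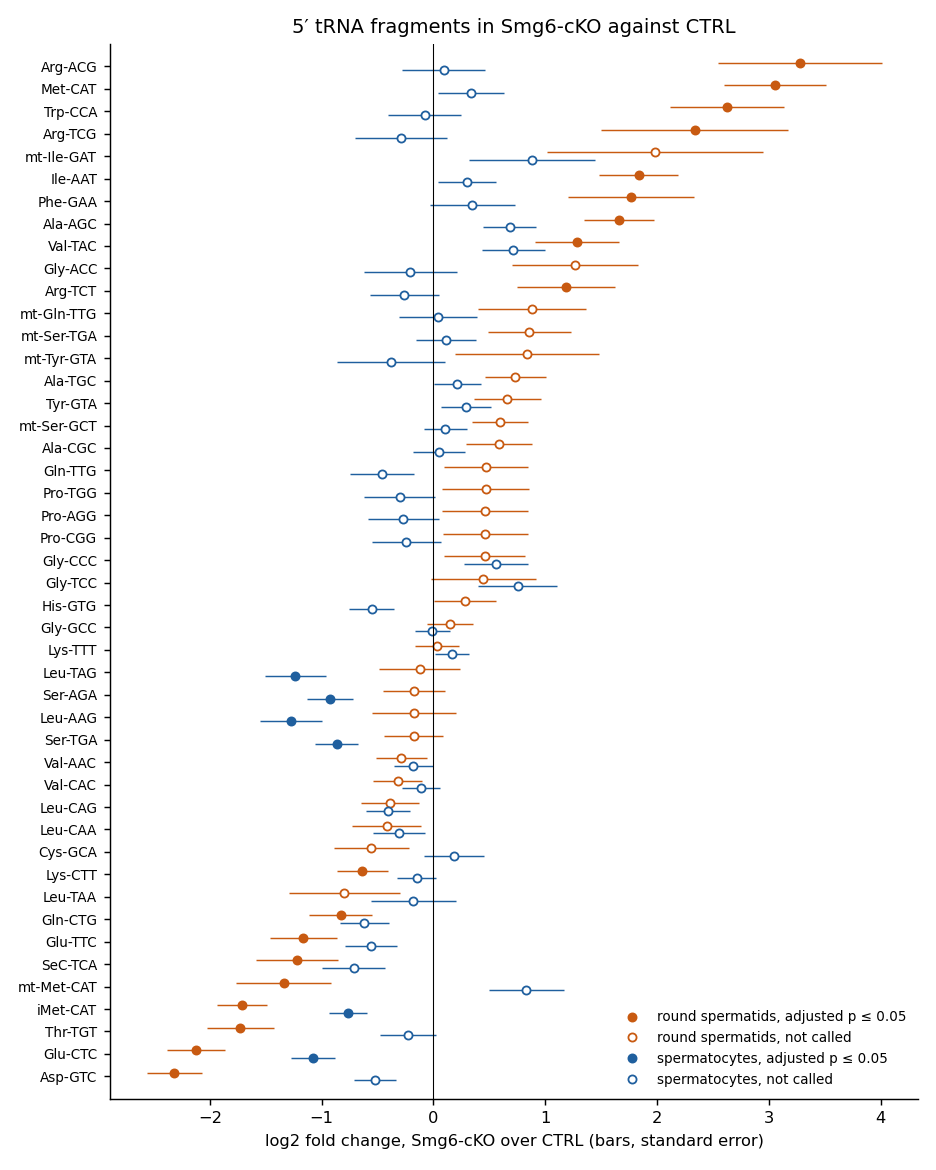
Log2 fold change (Smg6-cKO over CTRL, x axis) of the 46 tested 5′ rows in round spermatids and spermatocytes under TMM scaling, with bars of 1 standard error and filled points where edgeR's adjusted p was at most 0.05. In round spermatids the points run from -2.32 (Asp-GTC) to 3.28 (Arg-ACG, on 2 CTRL counts) with 9 filled on either side, and in spermatocytes the 6 filled points are all below 0; other scalings move all points of a cell type together.

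Between the cell types of CTRL mice, 8 5′ rows were higher and 9 lower in round spermatids than in spermatocytes, beside 20.5% and 20.5% of all 185 rows. Somatic markers differed between these fractions too, in both directions. Sertoli cell markers had 39.2 to 98.9 CPM in CTRL spermatocytes and 4.59 to 6.04 in CTRL round spermatids, Leydig cell markers 83.05 to 299 and 4.41 to 4.65, and miR-202 12910 to 17600 and 798 to 1271. Macrophage markers went the other way, with 5.23 to 8.67 and 10.2 to 12.2. So did myeloid and lymphoid miRNAs (2634 to 3796 and 5096 to 5328) and erythroid miRNAs (8.72 to 75.4 and 84.7 to 156). Smooth muscle and endothelial miRNAs overlapped. The part of all these markers in the differences was not tested. The higher rows were Glu-CTC (log2 fold change 1.34, SE 0.22), Asp-GTC (1.77, SE 0.21), Glu-TTC (1.09, SE 0.26), mt-Met-CAT (2.07, SE 0.38), Thr-TGT (1.64, SE 0.26), Cys-GCA (1.15, SE 0.30), Val-CAC (0.55, SE 0.19) and Val-AAC (0.50, SE 0.20). Asp-GTC went from 1926 to 2935 in spermatocytes to 8178 to 9998 in round spermatids. The lower rows were Met-CAT (-2.28, SE 0.43), Trp-CCA (-1.68, SE 0.52), Arg-ACG, Arg-TCG, Leu-AAG (-1.39, SE 0.34), Leu-TAG (-1.37, SE 0.33), Ser-AGA (-0.85, SE 0.25), Ser-TGA (-0.80, SE 0.24) and His-GTG (-0.74, SE 0.25). Elongator Met-CAT fell from 67.4 to 95.3 normalised counts in spermatocytes to 7.67 to 29.0 in round spermatids. Arg-ACG had 33 counts in the 5 spermatocyte and 2 in the 3 round spermatid libraries, a ratio of 0.150 with a counting interval of 0.0175 to 0.588. The calls of Val-CAC and Val-AAC did not hold in every leave-one-out fit (Val-CAC lost without S19, S20, S28 or S30, at 0.41 to 0.55, and Val-AAC in 9 of the 16 fits without one library, at 0.36 to 0.59).

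By isotype, 6 of the 26 5′ sums were higher and 6 lower in CTRL round spermatids, beside 20.9% and 28.2% of the 110 sums. The higher sums were mt-Met (2.07, SE 0.38), Asp (1.77, SE 0.20), Thr (1.62, SE 0.28), Glu (1.29, SE 0.21), Cys (1.15, SE 0.31) and Val (0.52, SE 0.19). The lower sums were Met (-2.29, SE 0.44), Trp (-1.68, SE 0.53), Arg (-1.27, SE 0.34), Leu (-0.86, SE 0.25), Ser (-0.78, SE 0.22) and His (-0.74, SE 0.26). The Trp sum was not called without S20 (-1.63). This comparison shares its CTRL round spermatid libraries with that of the genotypes, so the rows named in both are not 2 independent observations.

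Between the cell types of Smg6-cKO mice no 5′ row was called (0% of all 185 rows in either direction), by edgeR's quasi-likelihood test or by DESeq2, and 13 5′ rows had an unadjusted p under 0.05 in edgeR and 12 in DESeq2. Glu-CTC had 2090 to 4084 normalised counts in the spermatocytes and 3086 to 3455 in the round spermatids, Asp-GTC 1368 to 2745 and 1362 to 2196, and elongator Met-CAT 49.0 to 160 and 116 to 169, all overlapping. The smallest p-values belonged to Ile-AAT (log2 fold change 1.003, SE 0.26, adjusted p = 0.163, edgeR) and Trp-CCA (1.03, SE 0.34). Of the 26 isotype sums none was called (0% of the 110 sums in either direction) by edgeR or DESeq2, with 5 and 6 at an unadjusted p under 0.05. Leaving out S23 gave 4 called rows and 3 sums, and leaving out S16 gave 2 and 2, all higher in round spermatids.

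Whether the effect of the genotype differed between the cell types was tested by the interaction, the effect in round spermatids minus that in spermatocytes. It was positive for 4 and negative for 5 of the 46 rows, beside 7.03% and 7.03% of all 185 rows. The negative ones were mt-Met-CAT (-2.17, SE 0.54), Asp-GTC (-1.80, SE 0.30), Thr-TGT (-1.50, SE 0.39), Glu-CTC (-1.05, SE 0.31) and initiator Met (-0.95, SE 0.28), and the positive ones Met-CAT (2.72, SE 0.54), Trp-CCA (2.71, SE 0.62), Ile-AAT (1.54, SE 0.44) and Arg-ACG, the latter a description on 2 CTRL counts, as above. Of the isotype sums, 4 were positive (Met, Trp, Arg and Ile) and 5 negative (mt-Met, Asp, Thr, initiator Met and Glu), beside 13.6% and 8.18% of the 110 sums. The difference in Asp-GTC was the best resolved (adjusted p = 0.000193, edgeR), and that in Glu-CTC the least firm of the abundant rows, since it was lost without S15, S20, S26 or S28 (-1.002 to -0.89). Leaving out S16 raised the count from 9 to 14 rows (8 positive, 6 negative) and from 9 to 11 sums. Leaving out S18 left 5 sums, and leaving out S17 left 6. The call of the Glu sum was lost in 8 of the 16 fits without one library (S15, S17, S18, S19, S20, S26, S28 or S30), that of Ile without S15, S17, S18 or S20 (1.27 to 1.53), that of initiator Met without S17 or S18 (-0.86 and -0.85) and that of Thr without S18 (-1.28).

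Mitochondrial tRNAs gave a small part of the 5′ fragments, and mostly through mt-Ser-GCT, whose tRNA lacks a D arm. Its normalised counts were 475, 602 and 676 in CTRL and 832, 1086 and 746 in Smg6-cKO round spermatids (log2 fold change 0.60, SE 0.25), apart between the genotypes but not called. The only mitochondrial row called was mt-Met-CAT, which primes and extends mitochondrial protein synthesis. It had 324, 360 and 417 in CTRL and 200, 78.4 and 153 in Smg6-cKO round spermatids (-1.34, SE 0.42). In spermatocytes it had 65.3 to 98.3 in CTRL but 50.0 to 313 in Smg6-cKO, with S22 at the top. The call in round spermatids was lost without S16, S19 or S20 (-0.89, -1.35 and -1.09).

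TMM centres the tRNA rows of each library on one another, so it shows changes relative to other tRNA fragments and not a shift of all of them. CTRL round spermatids needed a factor of 0.712 on average, against group means of 1.012 to 1.15 elsewhere. Other denominators move all rows together: the median log2 fold change over the 185 rows between genotypes in round spermatids was -0.02 with TMM, 0.59 with library size, 0.21 with the effective library sizes of the miRNA table and 1.58 with the piRNA cluster totals. In spermatocytes it was -0.06, 0.13, 0.66 and 0.48. The split of the called 5′ rows followed: in round spermatids 9 higher and 9 lower became 25 and 4 with library size, 13 and 5 with miRNAs and 37 and 0 with piRNA clusters, and it was 12 and 8 with DESeq2 and 13 and 7 without the count filter. In spermatocytes 0 higher and 6 lower became 1 and 5 with library size, 3 and 5 with TMM over the 5′ rows alone, 19 and 1 with miRNAs and 0 and 0 with piRNA clusters (14 rows at an unadjusted p under 0.05), and it was 1 and 6 with DESeq2, 3 and 5 without the count filter and 3 and 6 with the spermatocyte libraries alone. Between the CTRL cell types, 8 higher and 9 lower became 5 and 18 with library size, 8 and 6 with miRNAs and 1 and 19 with piRNA clusters. The interaction went from 4 and 5 to 16 and 2 with library size, 3 and 6 with miRNAs and 22 and 0 with piRNA clusters, with medians over all rows of -0.04, 0.40, -0.47 and 1.05.

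Subtracting the median row removes a shift common to all rows by construction, so the values so obtained describe the place of a fragment among the tRNA rows and are no sign of stability. In round spermatids, the log2 fold change of Glu-CTC minus that of the median row was -2.103 to -2.06 over the 5 scalings, and that of Asp-GTC -2.29 to -2.22. For Ala-AGC it was 1.69 to 1.82. In spermatocytes it was -1.102 to -1.02 for Glu-CTC. Without that centring, Glu-CTC in round spermatids was at -1.49 with library size and -1.85 with miRNAs, both called, and at -0.52 with piRNA clusters, not called. Glu-TTC, at 0.26 with piRNA clusters, changed its sign. In spermatocytes, Glu-CTC ran from -1.28 to -0.44 over the 23 alternative fits, and its call was lost with piRNA clusters. The weakest values of the sums called there were -0.31 for Glu, -0.21 for Ser, -0.075 for Leu and -0.047 for initiator Met.

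**Figure D5:**
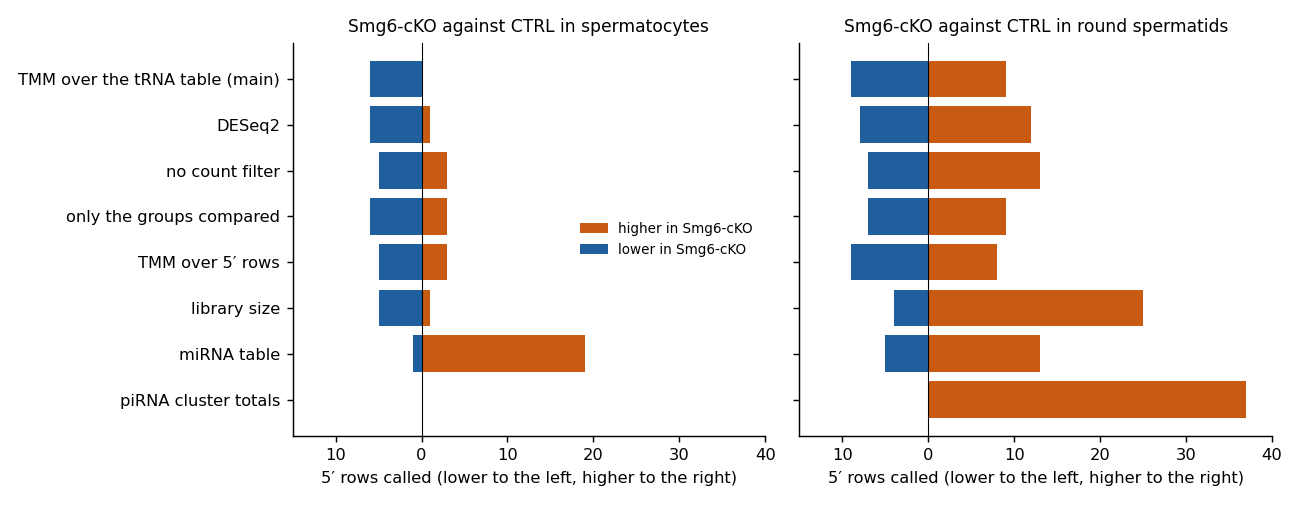
Number of 5′ rows called lower (left of 0) and higher (right of 0) in Smg6-cKO in spermatocytes and round spermatids under 8 ways of testing or scaling. In round spermatids the bars go from 9 and 9 under TMM to 0 and 37 with piRNA cluster totals, and in spermatocytes from 6 lower to 19 higher with miRNA scaling.

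The 5′ fragments can be set beside the other ends of the same tRNAs. In Smg6-cKO round spermatids, 2 of the 70 tested rows that end in the 3′ CCA were higher and 11 lower than in CTRL (median log2 fold change -0.03), and 7 and 7 of the 67 rows with no end label (-0.17), against 9 and 9 of the 46 5′ rows (0.45). The CCA rows made up 50.4% ± 4.24 of the tRNA counts in CTRL and 61.7% ± 2.78 in Smg6-cKO round spermatids (n = 3 each). Only 2 rows labelled as a 3′ end were tested.

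The genes that cut, protect and mature tRNAs were followed in the long RNA of the same cell fractions, through a list of 48 genes, of which 44 passed the count filter. In round spermatids 31 were higher and 5 lower in Smg6-cKO, beside 38% and 33.3% of the 18504 genes and elements tested, with a median log2 fold change of 0.92 against 0.10 over all. With library size in place of TMM it was 39 and 1, and the median over all was 0.65. In spermatocytes 6 were higher and 2 lower, beside 13.3% and 13% of 18323, with medians of 0.11 and -0.01.

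Of the nucleases, Ang, for angiogenin, had normalised counts of 1.15, 1.25 and 3.81 in CTRL and of 49.5, 41.5 and 62.8 in Smg6-cKO round spermatids. In spermatocytes it had 6.76, 6.24 and 7.82 in CTRL and 32.4, 16.9 and 22.2 in Smg6-cKO. The genotypes did not overlap in either cell type, but Ang passed the count filter only through the Smg6-cKO libraries, where it is high, and dropped out without any one of them, so these values are a description and no test is given, although Ang is in the counts of called genes above. Rnaset2a, for a lysosomal RNase T2, rose by 1.75 (SE 0.33) in round spermatids. In spermatocytes it was at 0.77 (SE 0.38) and was not called, and the difference between the cell types was not tested. Apart from Ang, the 4 tested cleavage genes, among them Rnaset2b (1.19, SE 0.33) and Dicer1 (1.497, SE 0.17), were higher in Smg6-cKO round spermatids, where 38% of all genes and elements were. Macrophages and other somatic cells express these nucleases too, and the macrophage markers moved with them, as given above; the part of those cells in the levels of Ang was not tested. The inhibitor Rnh1 rose as well, by 1.09 (SE 0.28) in round spermatids, and was at 0.50 (SE 0.24, adjusted p = 0.157, edgeR) in spermatocytes.

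The methyltransferases that protect tRNAs were not called under TMM with all libraries. Trdmt1 was at 0.44 (SE 0.19, adjusted p = 0.0657, edgeR) in round spermatids and 0.05 (SE 0.18) in spermatocytes, and Nsun2 at -0.01 (SE 0.07) and -0.03 (SE 0.09). With library size as the scale, Nsun2 was at 0.55 and Trdmt1 at 0.9997 in round spermatids, where Trdmt1 was then called, as it was without Smg6-cKO replicate 3 (0.59). Of the other modification genes, Ftsj1, a tRNA 2′-O-methyltransferase, was higher in round spermatids (1.84, SE 0.34). Alkbh1, a demethylase of tRNA 1-methyladenosine, was higher in both cell types (0.99, SE 0.13, and in spermatocytes 0.96, SE 0.11). Trmt6, part of the 1-methyladenosine methyltransferase, was also higher in both (0.64, SE 0.12, and 0.48, SE 0.14), but in spermatocytes it was called in none of the 6 fits without one library (0.43 to 0.57). Alkbh3 (-0.40, SE 0.09) was lower in round spermatids under TMM and at 0.15 with library size, and it was higher in spermatocytes (0.33, SE 0.08). Its call in spermatocytes was lost without Smg6-cKO replicate 2 or 3 or CTRL replicate 3, where only Alkbh1 and Elac2 were called higher. The difference of Alkbh3 between the cell types was not tested.

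Elac2, for the RNase Z that trims the 3′ end of precursor tRNAs, was the best resolved of the list, with normalised counts of 864, 971 and 804 in CTRL and 3119, 3056 and 3252 in Smg6-cKO round spermatids (1.84, SE 0.10). It was also higher in spermatocytes (0.87, SE 0.10), and the difference between the cell types was not tested. Trnt1, which adds the terminal CCA, fell in both, by 0.80 (SE 0.09) and 0.37 (SE 0.10). The call in spermatocytes was lost in 5 of the 6 fits without one library (-0.39 to -0.30). Thg1l, which adds the 5′ G of tRNA-His, rose by 0.51 (SE 0.14) in spermatocytes, where the call was lost without Smg6-cKO replicate 2 or 3 or CTRL replicate 2 or 3 (0.41 to 0.51), and Polr3g, a subunit of RNA polymerase III, fell by 1.27 (SE 0.31) there, a call lost in 4 of the 6 such fits (-1.19 to -1.096). Both were higher in round spermatids (Thg1l 0.88, SE 0.11, and Polr3g 1.17, SE 0.21). In round spermatids Clp1, an RNA kinase of tRNA splicing (-0.60, SE 0.09), Brf2, a polymerase III initiation factor (-0.39, SE 0.11), and Rpp30, a subunit of RNase P (-0.37, SE 0.11), were lower under TMM, and with library size they were at -0.04, 0.16 and 0.19. The call of Brf2 was lost without Smg6-cKO replicate 1 (-0.30) and that of Rpp30 without Smg6-cKO replicate 1 or 2 (-0.30 and -0.29).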

How the data were processed

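Small RNA of pachytene spermatocytes and round spermatids was measured in 16 libraries, and poly(A) RNA of the same kinds of fraction in 12. The authors made the tRNA and miRNA counts with SPORTS1.1, which maps reads in turn to rRNA, miRNA and tRNA references, and deposited whole read counts per tRNA anticodon and fragment end; whether molecular identifiers were merged is not given in the sources used here. The expected counts of piRNA clusters, and the long RNA counts per gene and transposable element (cutadapt 2.8, STAR 2.7.1a and TEtranscripts), were likewise deposited by the authors. Only the cluster totals were used from the former.

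Missing entries of the tRNA table were taken as 0. Rows with at least 10 counts in at least 3 libraries were fitted in edgeR 4.0.16 (R 4.3.3) with a mean for each of the 4 groups and TMM scaling over all fragment ends, and each contrast was put to its quasi-likelihood test (two-sided; p-values of all tested rows adjusted together after Benjamini and Hochberg; threshold 0.05). Isotype sums were fitted alike. The SE of an edgeR fold change was the size of the fitted log2 coefficient divided by the square root of the test's F value. The fold changes given are edgeR's, moderated for low counts, so the SE of rows with few counts is approximate. Long RNA was fitted within each cell type. DESeq2 1.42.0 was an alternative. The fits were tested on simulated data. Named rows were the 10 most abundant, at most 5 called in each direction per contrast with a mean of at least 100 normalised counts, the called isotype sums and the called genes of the tRNA processing list; other called rows are named because they passed the test. The members and lists were chosen with earlier results of these data known. Library depths were 37315 to 105677 tRNA counts, and 38129415 to 49940226 counts in long RNA. Intervals and floors cover counting error only.

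The small RNA columns carry no replicate numbers. In long RNA, same-numbered libraries of the genotypes did not deviate together (r from -0.162 to 0.269), so the numbers were not taken to pair them. Some sequences and a gene that the rules would show are not reported here.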

Additional observations from a re-analysis of the deposited data

Results flagged for a closer look

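In Smg6-cKO spermatocytes, the normalised count of Asp-GTC in S21 was 2745 with the nearest of the other 4 libraries at 1759, and that of Cys-GCA in S22 was 269 with the nearest at 111. Each stood farther from the rest than Dixon's 95% value allows, in 2 of 28 groups of 5 libraries tested, where chance flags about 1 in 20.

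For 8 rows other than Arg-ACG the genotype effect differed between the cell types by edgeR's interaction test. The effect in round spermatids minus that in spermatocytes was -2.17 for mt-Met-CAT (adjusted p = 0.00801, edgeR), -1.80 for Asp-GTC (0.000193), -1.50 for Thr-TGT (0.00967), -1.05 for Glu-CTC (0.0261) and -0.95 for initiator Met-CAT (0.0230). It was 2.72 for Met-CAT (0.00083), 2.71 for Trp-CCA (0.00317) and 1.54 for Ile-AAT (0.0211). For Arg-ACG it was 3.19, which is given with no test: it rests on 2 counts in the CTRL round spermatids and is no bound, and that row passed the count filter only through Smg6-cKO libraries.

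The same test passed for 9 isotype sums, which hold the same reads. The difference was -2.17 for mt-Met, -1.80 for Asp, -1.37 for Thr, -0.95 for initiator Met and -0.94 for Glu, and 2.73 for Met, 2.697 for Trp, 1.70 for Arg and 1.485 for Ile, with adjusted p-values from 0.000137 to 0.0344 (edgeR).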

How the results depend on the processing

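Scaling shifts all rows together and moved the number of calls in most comparisons. With library size, 29 rows were called between genotypes in round spermatids and 18 for the interaction, and 2 isotype sums in spermatocytes. With miRNA scaling, 20 rows and 12 sums were called in spermatocytes. With piRNA cluster totals, 0 rows and 0 sums were called there (14 and 8 at an unadjusted p under 0.05 in edgeR), 37 rows and 19 sums in round spermatids, and 22 rows for the interaction. TMM over the 5′ rows alone gave 3 rows between the Smg6-cKO cell types.

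Signs turned as follows for values called under TMM or under the alternative; values called under neither, such as Asp-GTC and Glu-TTC in spermatocytes and Cys-GCA in round spermatids, could change sign too. With miRNA scaling in spermatocytes, Val-CAC was at 0.60, Val-AAC at 0.51 and Gly-GCC at 0.77. With library size in round spermatids, Lys-CTT was at 0.018, Alkbh3 at 0.15, Brf2 at 0.16, Rpp30 at 0.19 and Nsun2 at 0.55. With piRNA cluster totals in round spermatids, Glu-TTC was at 0.26, Val-CAC at 1.23, Val-AAC at 1.24, Lys-CTT at 1.09, mt-Met-CAT and its sum at 0.39 and the Thr sum at 0.062. Between CTRL cell types Val-CAC was then at -0.33 and Val-AAC at -0.38, and the interactions were 0.10 for Glu-CTC, 0.079 for the initiator Met sum and 0.16 for the Glu sum.

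Without one library, called rows ranged from 6 to 11 in spermatocytes, 12 to 20 in round spermatids, 0 to 4 between Smg6-cKO cell types and 7 to 14 for the interaction, and sums from 3 to 6 in spermatocytes, 0 to 3 between Smg6-cKO cell types and 5 to 11 for the interaction. Over rows with an end label only, the 5′ share was 31.5% in Smg6-cKO round spermatids and 32.7% in CTRL spermatocytes. Per 1000 piRNA cluster counts, the 5′ counts were 3.74 and 2.82 in Smg6-cKO and CTRL round spermatids and 2.835 and 2.63 in spermatocytes. Without mitochondrial rows, CTRL round spermatids had 112 per 1000 miRNA counts.

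No paired analysis was possible because the small RNA columns carry no replicate numbers; for the same reason a fit on spermatocyte libraries 1 to 3 was not run. In long RNA, a replicate block left 4 of the called tRNA processing genes in number in spermatocytes, against 8 without it, and 35 against 36 in round spermatids; without one library the spermatocyte count was 2 to 6. Rows under about 10 counts in a group are limited by depth.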
